A study of Mus musculus with 18 samples.

Results

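The 38 Hox genes of the mouse HoxA, HoxB, HoxC and HoxD clusters were followed in MC3T3-E1 subclone 4 cells, a pre-osteoblast line from C57BL/6 calvaria, the roof of the skull. The genes were taken by symbol from a table of 43346 genes, without regard to their values: 10 in HoxA, 10 in HoxB, 9 in HoxC and 9 in HoxD. All cells were at passage 9, came from 1 subclone and spent 3 days in osteogenic medium. One arm received 0.25% DMSO, the vehicle, and the other 2.5 µM EPZ6438, an inhibitor of the methyltransferase EZH2. The labels leave unsaid whether EPZ6438 was given in DMSO. RNA was sequenced from 3 samples per arm. H3K27me3 and H3K4me3 were mapped by chromatin immunoprecipitation in 2 samples per mark and arm beside input samples. The peaks used are those of 1 merged list for each mark in each arm.

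Hox genes encode homeodomain transcription factors that give cells their position along the body axis. Within a cluster they lie in the order in which they are used from head to tail, and genes at the same place in different clusters form a paralog group, numbered from anterior to posterior. The clusters are the classic targets of Polycomb repression: EZH2, the catalytic subunit of PRC2, places H3K27me3 on them, and PRC1 binds that mark. H3K4me3 marks active or poised promoters. Silent developmental genes that carry both marks are called bivalent.

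The RNA libraries held 18807156 to 25365513 reads in genes, so that 3 reads, taken here as the floor, correspond to 0.118 to 0.160 reads per 1000000. The labels do not say whether the samples were separate cultures, so the p-values measure sample-to-sample spread that could be purely technical. Of markers of other cell types, the endothelial, epithelial, neuronal and muscle lists each summed to at most 0.176 RPKM, reads per kilobase of gene per 1000000 reads, in any library. The 4 blood markers summed to 0.975 to 1.27 RPKM with DMSO and 1.26 to 1.80 RPKM with EPZ6438, nearly all of it the macrophage gene Cd68. Cd3e had no read and Ptprc 1 read in all. Csf1r, the receptor of macrophages, was at 0.130 ± 0.000907 RPKM with DMSO and 0.238 ± 0.0916 RPKM with EPZ6438 (SD, n = 3 each), without overlap of the arms (adjusted p = 0.288 by limma). The part of these levels in the Hox results was not tested. All 9 osteoblast markers were expressed. With EPZ6438 5 of them rose and 1 fell at an adjusted p under 0.05 by limma, against 3.80% and 3.24% of all genes tested. The part of this shift in the Hox results was not tested. RNA of Ezh2, whose enzyme the inhibitor blocks, was 16.2, 14.3 and 12.6 RPKM with DMSO and 15.4, 14.1 and 15.1 RPKM with EPZ6438 (log2 change 0.05, SE 0.11, adjusted p = 0.839 by limma).

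Most Hox genes were silent or nearly so in these cells, and the RNA present came from HoxA and HoxB. Of the 38 members, 10 had no read in any of the 6 libraries and 15 stayed under 3 reads in every library. A mean of at least 1 RPKM in an arm was reached by 7 members: Hoxa5, Hoxa6 and Hoxa10 in HoxA, and Hoxb6, Hoxb8, Hoxb9 and Hoxb13 in HoxB. Even the highest of them, Hoxa10, stood only at the 35.9th percentile of the 14213 genes tested, by its mean with DMSO. With 10 reads in at least 3 libraries as the requirement for testing, 15 members were tested: 7 of HoxA, 6 of HoxB, 2 of HoxC and none of HoxD. No member left untested exceeded 11 reads or 0.333 RPKM in any library.

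**Figure D1:**
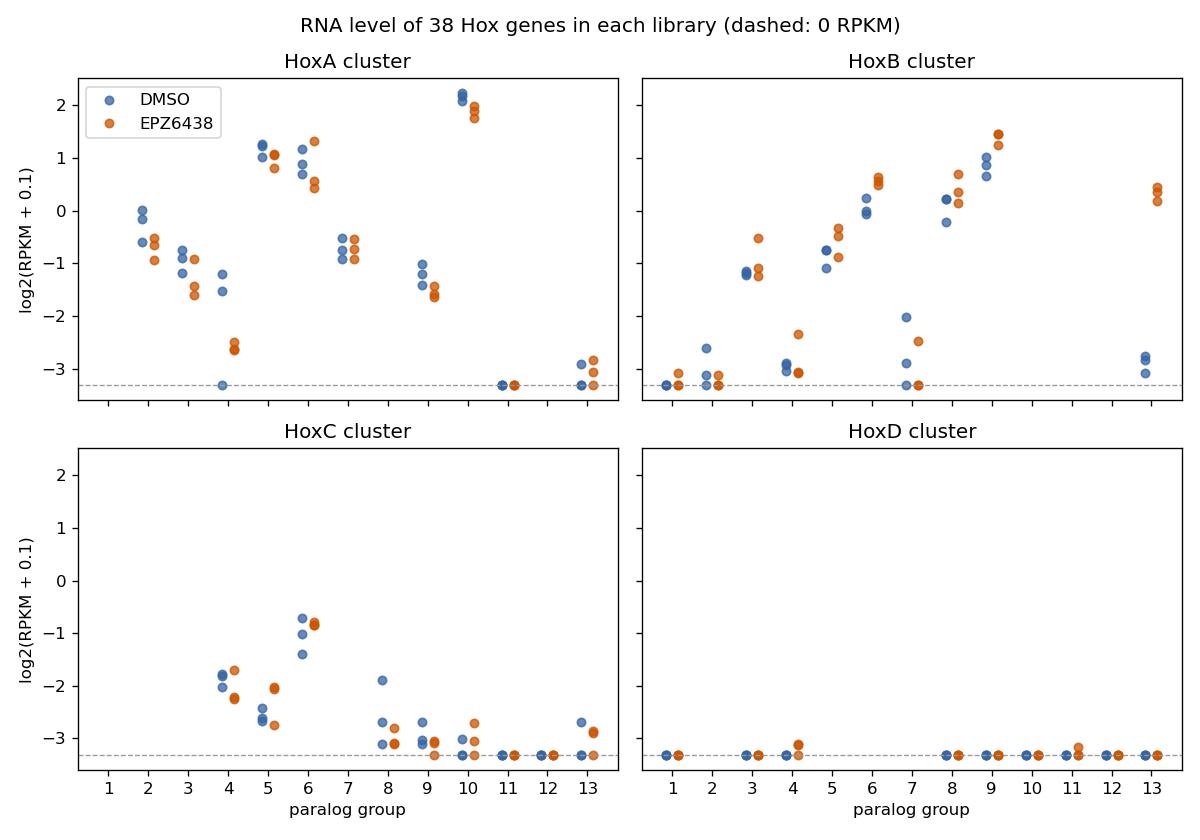
Level of each Hox gene as log2(RPKM + 0.1) in each of the 6 libraries (points; 3 DMSO and 3 EPZ6438), by paralog group along the horizontal axis, in 1 panel per cluster; the dashed line is 0 RPKM. Hoxb13, at group 13 of HoxB, lies between 0.0179 and 0.0482 RPKM with DMSO and between 1.03 and 1.26 RPKM with EPZ6438, and all HoxD points lie on or near the line.

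The sum of RPKM over a cluster separated the clusters. The 10 HoxA genes summed to 10.3, 10.4 and 11.0 RPKM in the DMSO libraries and to 8.81, 7.70 and 9.91 RPKM in the EPZ6438 libraries. The 10 HoxB genes summed to 4.83, 4.83 and 4.01 RPKM with DMSO and to 7.47, 6.93 and 7.77 RPKM with EPZ6438. HoxA was thus lower and HoxB higher in every EPZ6438 library than in any DMSO library. Without Hoxb13 the HoxB sum was 4.52 ± 0.462 RPKM with DMSO (SD, n = 3) and 6.23 ± 0.492 RPKM with EPZ6438 (SD, n = 3), still without overlap. HoxC summed to 0.774 ± 0.135 RPKM with DMSO and 0.808 ± 0.129 RPKM with EPZ6438 (SD, n = 3 each), which overlapped. HoxD gave no read at all in the DMSO libraries and 2, 1 and 0 reads in the EPZ6438 libraries. In bulk RNA, a change in the number of cells that express a gene and a change in the RNA per cell cannot be told apart.

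Over paralog groups, the silent end of the series was not simply the posterior one. Of the 7 anterior members (groups 1 to 3) 3 were tested, of the 15 central members (groups 4 to 8) 8, and of the 16 posterior members (groups 9 to 13) 4. The 4 posterior genes tested, Hoxa9, Hoxa10, Hoxb9 and Hoxb13, included the highest of all members. Groups 11 and 12, which pattern the limbs, the urogenital tract and the hair follicle, were silent: Hoxa11, Hoxc11, Hoxc12, Hoxd11 and Hoxd12 each had at most 1 read in any library.

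Under the limma fit over all 14213 genes, 1 member rose and none fell at an adjusted p under 0.05. Over all genes tested, 3.80% rose (540 genes) and 3.24% fell (461). These counts depended on single libraries: without DMSO library 2 they were 233 and 90, and without EPZ6438 library 1, 2 or 3 they were 265 and 180, 277 and 147, and 227 and 132. At an unadjusted p under 0.05 there were 4 members, Hoxb6, Hoxb9 and Hoxb13 upward, against 9.42% of all genes tested, and Hoxa10 downward, against 11.2%. A fit with voom on the recovered reads also called 1 rise and 0 falls. The log2 change, EPZ6438 minus DMSO, was negative in 7 of the 7 HoxA genes tested (median -0.28) and positive in 6 of the 6 HoxB genes tested (median 0.41), beside a median of -0.029 over all genes tested. The tested HoxA and HoxB genes therefore stood on either side of zero, although only Hoxb13 passed the test. Hoxb13 met the requirement on reads through its EPZ6438 libraries alone, so its upward sign in the counts of this paragraph was fixed in advance. Of the untested HoxB genes, Hoxb2 and Hoxb7 had fewer reads with EPZ6438 (1 against 6 and 3 against 6 with DMSO). Hoxb1 and Hoxb4 had more (1 against 0 and 8 against 5). Hoxa7 in the HoxA count was at -0.00 and turned positive under other settings. All 3 EPZ6438 values lay above all 3 DMSO values in 3 members (Hoxb6, Hoxb9 and Hoxb13), against 12.0% of all genes tested, and below them in 2 (Hoxa9 and Hoxa10), against 14.7%.

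**Figure D2:**
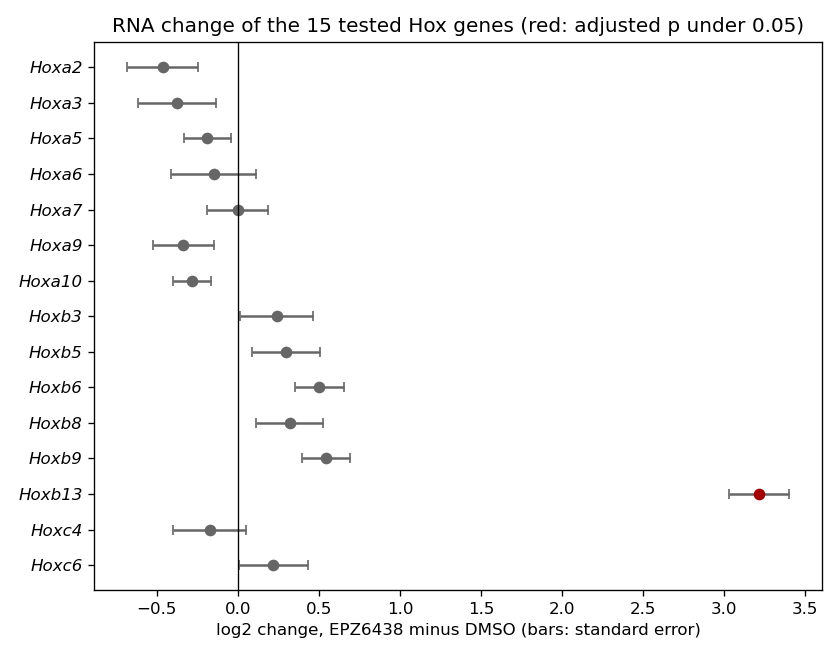
Log2 change in RNA, EPZ6438 minus DMSO, on the log2(RPKM + 0.1) scale for the 15 tested Hox genes; bars are standard errors of the limma fit over 3 libraries per arm, and red marks an adjusted p under 0.05. Hoxb13 stands apart at 3.21, while the other 14 members lie between -0.46 and 0.54.

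Hoxb13, the most posterior gene of HoxB and known for its part in the tail and the prostate, was the member that rose. Its level was 0.0482, 0.0408 and 0.0179 RPKM with DMSO and 1.03, 1.26 and 1.18 RPKM with EPZ6438. The DMSO values come from 2, 2 and 1 reads and the EPZ6438 values from 48, 67 and 52 reads. All EPZ6438 libraries were far above all DMSO libraries, and with EPZ6438 its range overlapped that of Hoxb8. The change was 3.21 on the log2(RPKM + 0.1) scale (SE 0.19, adjusted p = 0.000313 by limma). With so few DMSO reads this fitted value depends on the pseudocount: it was 4.74 with 0.01 RPKM added and 1.06 with 1 RPKM added. Over the pooled libraries, 167 reads against 5 gave a ratio of 34.0 (95% exact interval 14.3 to 106, counting error only). Hoxb13 passed the requirement on reads through its EPZ6438 libraries alone, so a member tested on those terms had to differ. The gene (ENSMUSG00000049604) lies at chr11:96194316-96197447 in mm10 and shares no base with another gene of the table.

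Chromatin at Hoxb13 kept H3K27me3 in both arms. In the DMSO list a peak of 3630 bp at chr11:96193245-96196874 covered 81.7% of the gene. In the EPZ6438 list a peak of 3624 bp at chr11:96192072-96195695 and a smaller one at chr11:96196715-96197282 covered 62.2% of it between them. No H3K4me3 peak of either list touched the gene. Hoxb13 is thus the member that rose and 1 of 2, with Hoxd13, at whose ends H3K27me3 peaks of the lists overlapped.

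The other 5 HoxB genes tested (Hoxb3, Hoxb5, Hoxb6, Hoxb8 and Hoxb9) had positive log2 changes and did not pass the test. Hoxb9, which shapes the thoracic ribs, was at 1.92, 1.71 and 1.49 RPKM with DMSO and 2.66, 2.28 and 2.64 RPKM with EPZ6438. The arms did not overlap (log2 change 0.54, SE 0.15, adjusted p = 0.0766 by limma). Under median-of-ratios scaling the adjusted p of Hoxb9 was 0.0471, so its call depended on the scaling. Hoxb6, a central gene of the trunk, was at 0.893, 1.08 and 0.863 RPKM with DMSO and 1.31, 1.37 and 1.45 RPKM with EPZ6438. Every EPZ6438 library was again the higher (log2 change 0.50, SE 0.15, adjusted p = 0.101). Hoxb8, best known for its role in blood progenitors and microglia, was at 1.07, 1.06 and 0.763 RPKM with DMSO and 1.51, 1.01 and 1.17 RPKM with EPZ6438. Its arms overlapped, the second EPZ6438 library lying below 2 of the DMSO libraries (log2 change 0.32, SE 0.21, adjusted p = 0.447).

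Hoxb5 and Hoxb3, toward the anterior end, gave log2 changes of 0.30 (adjusted p = 0.484) and 0.24 (adjusted p = 0.608), from DMSO means of 0.454 and 0.339 RPKM. The model of Hoxb3 overlaps 2 other genes of the table, and those of Hoxb5 and Hoxb6 overlap 1 each. Their values are therefore uncertain, since the use of strand in counting is not given. Hoxb1, Hoxb2, Hoxb4 and Hoxb7 were untested at no more than 6 reads in a library, and their arms overlapped. Hoxb7, between Hoxb8 and Hoxb6, and Hoxb4, between Hoxb5 and Hoxb3, thus had few reads while both neighbours of each were expressed.

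In HoxA, Hoxa10 was the most highly expressed Hox gene of both arms. It patterns the lumbar vertebrae, the femur and the uterus. Its level was 4.11, 4.43 and 4.60 RPKM with DMSO and 3.86, 3.29 and 3.60 RPKM with EPZ6438. All EPZ6438 libraries were below all DMSO libraries, yet the difference did not pass the test (log2 change -0.28, SE 0.12, adjusted p = 0.223 by limma). Hoxa5, needed for the respiratory tract and the cervical and upper thoracic vertebrae, was at 2.29, 2.25 and 1.93 RPKM with DMSO and 1.97, 1.65 and 2.02 RPKM with EPZ6438. Its arms overlapped (log2 change -0.19, SE 0.14, adjusted p = 0.519). Hoxa6 was at 1.52, 1.75 and 2.16 RPKM with DMSO and 1.25, 1.37 and 2.40 RPKM with EPZ6438. The third EPZ6438 library was the highest of the 6 and the other two were the lowest, so the arms overlapped (log2 change -0.15, SE 0.26, adjusted p = 0.803).

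The lower HoxA genes gave log2 changes of -0.46 for Hoxa2 (adjusted p = 0.292), -0.38 for Hoxa3 (adjusted p = 0.443), -0.34 for Hoxa9 (adjusted p = 0.375) and -0.00 for Hoxa7 (adjusted p = 0.997). Hoxa2, a hindbrain and branchial arch gene, is the member most tied to the head skeleton, and its DMSO mean was 0.755 RPKM. Hoxa4 was untested, with at most 0.333 RPKM in a library and no read in 1 of the DMSO libraries. Hoxa13 had 2 DMSO reads and 3 EPZ6438 reads in all, and Hoxa11 none. The values of Hoxa3, Hoxa4, Hoxa5 and Hoxa6 are uncertain, since the model of Hoxa3 spans the other 3. Hoxa3, Hoxa5 and Hoxa6 lie on the same strand, so counting by strand could not tell their reads apart where they overlap. Whether counting used strand is not given in the sources used here.

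In HoxC, Hoxc6 and Hoxc4 were tested, at log2 changes of 0.22 (adjusted p = 0.620) and -0.18 (adjusted p = 0.723). Their DMSO means were 0.394 and 0.174 RPKM. The other 7 did not exceed 11 reads in a library, and Hoxc11 and Hoxc12 had none. The model of Hoxc5 overlaps 4 other HoxC members, so its 14 DMSO and 23 EPZ6438 reads may belong to any of them. Hoxc6 is among them, so its value is uncertain too.

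The order of the levels was much the same in the arms apart from HoxB. With DMSO, the range of Hoxa10 lay above that of Hoxa5. Hoxa5, Hoxa6 and Hoxb9 followed, each overlapping the next in range, then after a gap Hoxb8, Hoxb6, Hoxa2, Hoxa7, Hoxb5, Hoxa3, Hoxc6 and Hoxb3, again each overlapping the next. With EPZ6438, Hoxb9 stood second, its range below that of Hoxa10 and above that of Hoxa5. Hoxa5, Hoxa6, Hoxb6, Hoxb8 and Hoxb13 then overlapped in turn, and Hoxb13 had moved from near 0 to above Hoxb5.

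H3K27me3 lay over the 4 clusters very unequally. Each cluster was taken from its first to its last listed gene plus 10 kb on each side, in mm10. With DMSO, HoxB (chr11:96184316-96378256) held 49 peaks over 25.7% of its bases and HoxD (chr2:74658310-74775142) 21 peaks over 8.12%. HoxA (chr6:52152511-52270880) held 9 peaks over 3.33% and HoxC (chr15:102911103-103046852) 9 peaks over 2.74%. The chromosomes carrying them, from their first to their last gene, were covered to 5.48%, 4.73%, 5.87% and 3.86% in the same order. HoxB stood well above its chromosome, HoxD above it, and HoxA and HoxC below theirs. The 2 clusters with less H3K27me3 include both HoxA, the highest in RNA, and HoxC, which was nearly silent.

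With EPZ6438, H3K27me3 peaks remained in HoxB and HoxD only. HoxB held 12 peaks over 7.07% of its bases and HoxD 5 over 3.80%, beside 0.712% and 0.687% of their chromosomes. HoxA and HoxC, with only 9 DMSO peaks each, held none, beside 1.05% and 0.446% of their chromosomes. Over the 4 clusters the count was 88 with DMSO and 17 with EPZ6438. The whole lists held 143399 and 20764 peaks, so the EPZ6438 list is 14.5% as long. Each list is single, so these counts have no replicate error, and the depth of the lists is unknown. An EPZ6438 peak overlapped 15 of the 88 DMSO peaks (17.0%), 10 in HoxB and 5 in HoxD, against 10.8% of the whole DMSO list. Conversely a DMSO peak overlapped 14 of the 17 EPZ6438 peaks (82.4%), against 76.1% of that whole list.

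**Figure D3:**
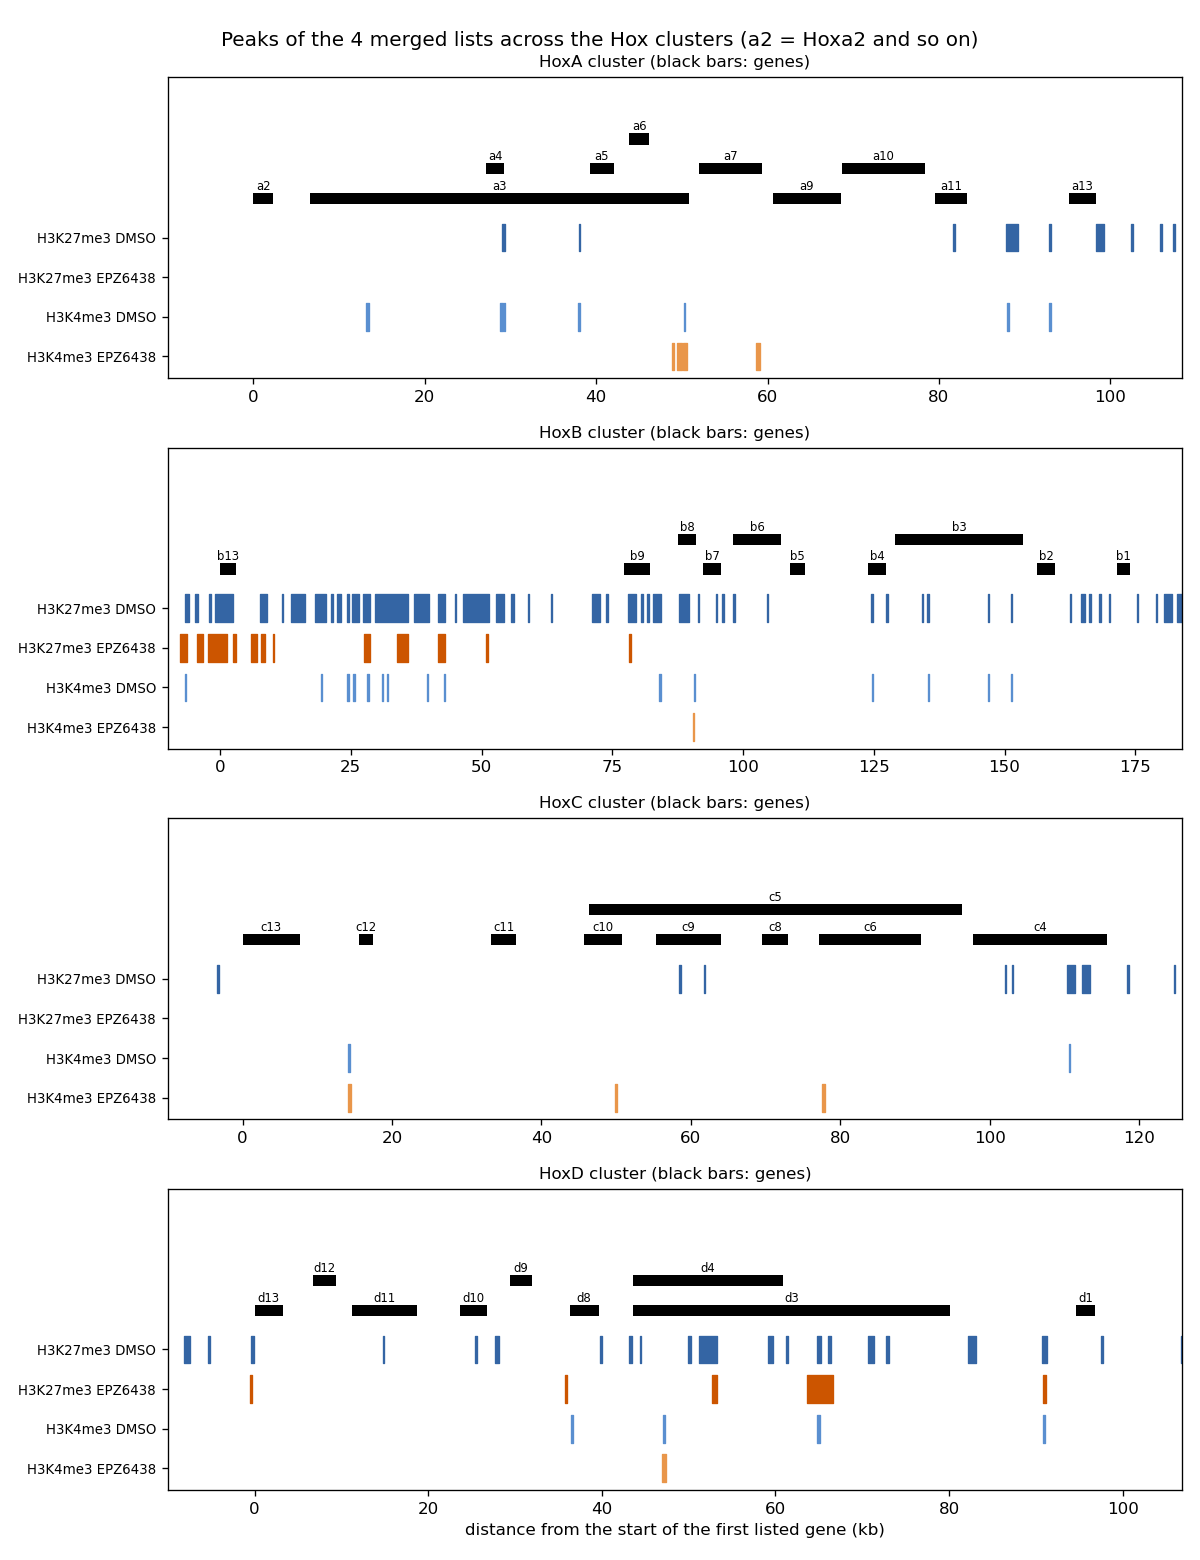
Peaks of the 4 merged lists (coloured bars, 1 row per mark and arm) and the Hox genes (black bars) in each cluster, by distance in kb from the start of the first listed gene. The H3K27me3 rows show 49 DMSO peaks in HoxB, which cover 41.8% of the bases between Hoxb13 and Hoxb9. They also show 12 EPZ6438 peaks in HoxB, gathered around and beyond Hoxb13.

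Within HoxB the mark was concentrated in the long stretch between Hoxb13 and Hoxb9, chr11:96197448-96271456, which holds no other Hox gene. With DMSO, 20 peaks covered 41.8% of these 74009 bp, and the stretch held 62.1% of all H3K27me3 bases of the cluster in 38.2% of its length. The widest HoxB peak of that list, 6329 bp, lay there. With EPZ6438, 7 peaks covered 9.23% of it. From Hoxb9 to Hoxb1, over 96800 bp that hold the other 9 genes, coverage was 11.1% with DMSO (21 peaks) and 0.405% with EPZ6438 (1 peak, of 392 bp inside Hoxb9). The genes from Hoxb8 to Hoxb1 thus had no H3K27me3 peak in the EPZ6438 list, while Hoxb13 and its flank did.

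Only 2 of the 12 EPZ6438 H3K27me3 peaks in HoxB had no overlapping DMSO peak, and both lie just past Hoxb13. They are chr11:96200191-96201306, starting 2744 bp past the end of the gene, and chr11:96204378-96204574, 6931 bp past it. The first covers most of Gm27605, a short misc_RNA gene at chr11:96200176-96200311, chosen here after its values were seen. It had no read in the DMSO libraries and 4, 5 and 1 reads in the EPZ6438 libraries. It had too few reads to be tested.

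**Figure D4:**
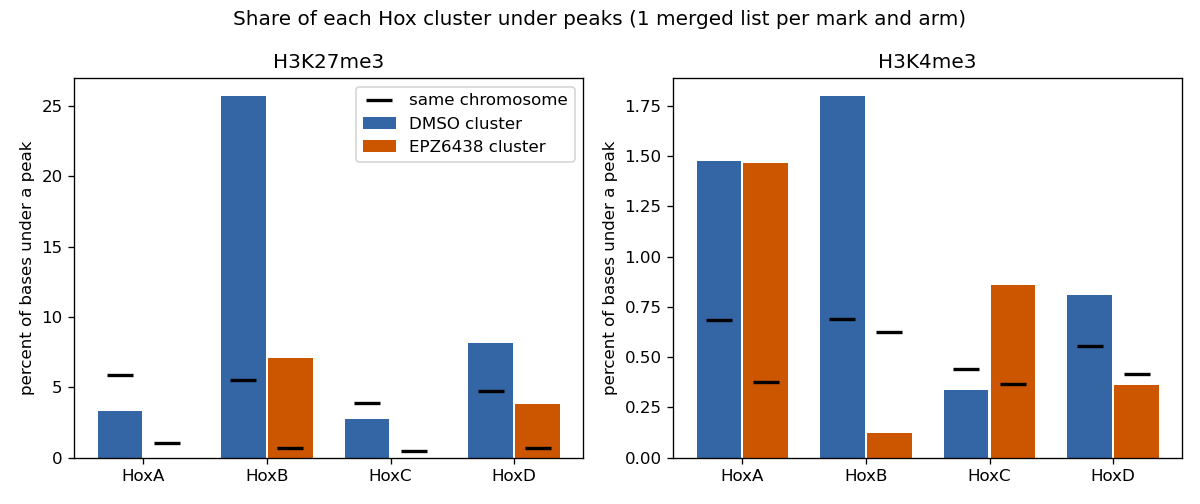
Percent of the bases of each Hox cluster under a peak (bars; 1 merged list per mark and arm, so no error bars) and of the same chromosome (black dashes), for H3K27me3 and H3K4me3. HoxB reaches 25.7% for H3K27me3 with DMSO, and HoxA and HoxC have no EPZ6438 bar for that mark.

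H3K4me3 was sparse over the clusters. With DMSO there were 28 peaks: 7 in HoxA, 15 in HoxB, 2 in HoxC and 4 in HoxD, covering 1.48%, 1.80%, 0.336% and 0.811% of the bases. With EPZ6438 there were 9: 4, 1, 3 and 1, covering 1.47%, 0.123%, 0.858% and 0.359%. HoxA was covered to a similar share in fewer peaks, mostly at other places: 1 of its 7 DMSO peaks was overlapped by 1 of the EPZ6438 peaks. HoxB went from 15 peaks to 1, within Hoxb8. The whole lists held 40113 and 16216 peaks with median widths of 212 and 401 bp, so counts compare lists of different character. An EPZ6438 H3K4me3 peak overlapped 3 of the 28 DMSO peaks (10.7%), against 23.7% of the whole list.

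Within the DMSO lists the marks often overlapped in HoxB and HoxA. An H3K27me3 peak overlapped 22 of the 28 H3K4me3 peaks (78.6%), against 48.0% of the whole H3K4me3 list. By cluster this was 14 of 15 in HoxB, 5 of 7 in HoxA, 1 of 2 in HoxC and 2 of 4 in HoxD. In HoxB, 8 of the 15 lay in the stretch between Hoxb13 and Hoxb9, away from any Hox gene. With EPZ6438 none of the 9 H3K4me3 peaks had an H3K27me3 peak on it, against 0.968% of that list. None of these 9 overlapped an H3K27me3 peak of the DMSO list either, against 2.64% of that EPZ6438 H3K4me3 list. All 28 DMSO H3K4me3 peaks were narrower than 400 bp. Whether the overlaps of the marks, here or at gene ends, reflect bivalent chromatin was not tested.

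At the genes themselves, peaks were sought within 1 kb of either end, since the table gives no strand. An H3K27me3 peak of the DMSO list was found at 14 of the 38 members (36.8%), against 17.0% of all protein-coding genes. They were Hoxa4 and Hoxa13, then Hoxb4, Hoxb6, Hoxb7, Hoxb8, Hoxb9 and Hoxb13, then Hoxd1, Hoxd3, Hoxd4, Hoxd8, Hoxd10 and Hoxd13. No HoxC gene was among them. In the EPZ6438 list it was found at 3 (7.89%), Hoxb13, Hoxd8 and Hoxd13, against 3.64%. All 3 were also in the DMSO list, but the peaks of the lists overlapped only at Hoxb13 and Hoxd13. At Hoxd8 they lay at opposite ends of the gene.

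The mark was found at expressed and at silent members. Of the 4 members with a mean of at least 1 RPKM with DMSO (Hoxa5, Hoxa6, Hoxa10 and Hoxb9), 1 had an H3K27me3 peak of that arm at an end, Hoxb9. Of the 10 with no read in any library 5 did. Hoxa5, Hoxa6 and Hoxa10, expressed without change past the test, had no peak of any list at their ends. Hoxa11, Hoxc11, Hoxc12, Hoxd9 and Hoxd12 had no read and no H3K27me3 peak at an end either. A missing peak at unknown depth is not evidence that the mark is absent.

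H3K4me3 was found at the ends of 5 members with DMSO (13.2%; Hoxa3, Hoxa4, Hoxb4, Hoxb8 and Hoxd8), against 32.5% of protein-coding genes. With EPZ6438 it was found at 5 (Hoxa3, Hoxa7, Hoxb8, Hoxc6 and Hoxc10), against 41.2%. Hoxa3 and Hoxb8 were in both lists. Among the 7 members with at least 1 RPKM in an arm, only Hoxb8 had an H3K4me3 peak there in either list. At Hoxb8 these peaks lay near the far end of the gene. Neither list had an H3K4me3 peak within 1 kb of its RefSeq start, on the plus strand. A peak of each mark was found at the ends of 4 members with DMSO (Hoxa4, Hoxb4, Hoxb8 and Hoxd8), against 3.25% of protein-coding genes, and of none with EPZ6438, against 0.200%. The peaks of the marks overlapped each other at 2 of the 4, Hoxa4 and Hoxb4, and lay apart at Hoxb8 and Hoxd8. Of these 4, Hoxb8 was expressed, Hoxa4 and Hoxb4 gave few reads and Hoxd8 none.

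The start regions show what the peaks cover. RefSeq sequences upstream of a start in GRCm38.p6, whose coordinates are those of mm10, were matched by symbol for 22 of the 38 members, with 24 starts. There was none for the other 16, which include Hoxb13 and Hoxb9. In the 250 bases before a start, member sequences held a median of 12.5 CG pairs (from 2 to 35), against 6 over all 32851 entries. DMSO H3K27me3 peaks reached into 4 of the 24, those of Hoxa13, Hoxc4, Hoxd3 and Hoxd13, and the EPZ6438 list into 1, that of Hoxd13. Hoxc4 joins here because its RefSeq start lies inside the longer gene model of the table. Its 250 upstream bases, not shown, lay wholly under a DMSO H3K27me3 peak and held 8 CG pairs. Shown are Hoxd13 and Hoxa13, genes of digits and limbs with 0 to 2 reads in a library, whose upstream bases lay wholly under a DMSO H3K27me3 peak, beside Hoxa5 and Hoxa10, expressed and without any peak. They are chr2:74667975-74668224 on the plus strand, and chr6:52260881-52261130, chr6:52204588-52204837 and chr6:52240855-52241104 on the minus strand, written 5′ to 3′ with each CG pair in capitals.
Hoxd13: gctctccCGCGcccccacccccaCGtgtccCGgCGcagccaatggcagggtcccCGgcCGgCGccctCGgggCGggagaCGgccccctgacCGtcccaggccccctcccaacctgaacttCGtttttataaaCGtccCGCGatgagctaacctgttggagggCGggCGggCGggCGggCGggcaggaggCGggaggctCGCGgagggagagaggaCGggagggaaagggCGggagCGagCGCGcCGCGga
Hoxa13: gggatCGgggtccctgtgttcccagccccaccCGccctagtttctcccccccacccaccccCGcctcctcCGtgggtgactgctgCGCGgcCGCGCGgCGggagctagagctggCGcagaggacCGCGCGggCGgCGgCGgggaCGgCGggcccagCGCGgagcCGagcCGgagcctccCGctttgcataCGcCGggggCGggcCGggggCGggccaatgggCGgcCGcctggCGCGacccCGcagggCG
Hoxa5: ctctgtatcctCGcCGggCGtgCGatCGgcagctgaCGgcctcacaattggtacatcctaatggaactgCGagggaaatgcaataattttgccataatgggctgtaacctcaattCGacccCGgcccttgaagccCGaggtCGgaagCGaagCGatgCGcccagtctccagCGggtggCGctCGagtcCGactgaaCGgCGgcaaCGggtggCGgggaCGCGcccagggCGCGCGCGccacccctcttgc
Hoxa10: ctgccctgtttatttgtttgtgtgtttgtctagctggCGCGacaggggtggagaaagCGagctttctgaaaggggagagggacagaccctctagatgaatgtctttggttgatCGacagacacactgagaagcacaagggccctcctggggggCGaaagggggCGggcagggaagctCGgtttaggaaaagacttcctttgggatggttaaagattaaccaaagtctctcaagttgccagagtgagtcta

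Hoxd13 held 31 CG pairs and Hoxa13 35, but Hoxa5, with no H3K27me3 peak, held 28. Hoxa10 held 7 at this start and 20 at its inner one. Hoxa13 and Hoxd13 held the most CG pairs of the 24 starts. Hoxc4 and Hoxd3, also reached by a DMSO H3K27me3 peak, held 8 and 12, so the counts of covered and uncovered starts overlapped. Whether CG density has a part in the coverage was not tested. The EPZ6438 H3K27me3 peak at Hoxd13 overlapped 59 of the 250 bases that the DMSO peak covered in full. The TATA box letters TATAAA on the given strand were found in 1 of the 24 member sequences (4.17%), that of Hoxd13, against 7.59% of all entries. The letters TGATNNAT, a core shared by sites of Hox proteins with their Pbx partners, were found on either strand in 4 (16.7%; Hoxa2, Hoxb1, Hoxb8 and Hoxd11), against 7.68%. These are matches of letters only.

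Among the 41 other genes of the table that lie inside the clusters, 7 were tested and 26 had no read in any library. Hoxd3os1, an antisense RNA gene that runs across Hoxd8 and the start of Hoxd3 and Hoxd4 (chr2:74703248-74716130), rose. Over all genes tested 7.04% were called in either direction. Its level was 0.0740, 0.0783 and 0.0961 RPKM with DMSO and 0.413, 0.476 and 0.278 RPKM with EPZ6438, from 4, 5 and 7 reads against 25, 33 and 16. Every EPZ6438 library was above every DMSO library (log2 change 1.40, SE 0.22, adjusted p = 0.0120 by limma). The call rests on few reads: it was lost without any filter (adjusted p = 0.0517) and without DMSO library 2 (0.0605), EPZ6438 library 1 (0.0540) or EPZ6438 library 2 (0.0549). Hoxd3, Hoxd4 and Hoxd8, which it overlaps, had at most 1 read in a library. It passed the requirement on reads through its EPZ6438 libraries alone. Since the use of strand in counting is not given in the sources used here, its reads cannot be told apart from reads of Hoxd3, Hoxd4 or Hoxd8 where they overlap.

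Peaks of both marks lay within Hoxd3os1. The H3K27me3 peaks were at chr2:74708111-74708371, chr2:74711418-74711768 and chr2:74712679-74712856 with DMSO, and at chr2:74704077-74704288 with EPZ6438. An H3K4me3 peak at chr2:74704743-74704932 was in the DMSO list only. Other H3K4me3 peaks lay in both arms, at chr2:74715360-74715593 with DMSO and chr2:74715289-74715708 with EPZ6438, inside the gene near its RefSeq start. The 250 bases before that start, shown because this is the HoxD gene model whose value rose, lie at chr2:74716131-74716380 on the minus strand and hold 4 CG pairs.
Hoxd3os1: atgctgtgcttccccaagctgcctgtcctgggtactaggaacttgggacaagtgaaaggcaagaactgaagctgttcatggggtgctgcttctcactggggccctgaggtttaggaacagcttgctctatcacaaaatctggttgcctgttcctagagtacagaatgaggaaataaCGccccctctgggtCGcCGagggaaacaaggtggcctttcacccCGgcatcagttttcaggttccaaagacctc

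Hotair, the noncoding RNA of HoxC studied as a partner of Polycomb, was at 0.397, 0.538 and 0.334 RPKM with DMSO and 0.0947, 0.310 and 0.174 RPKM with EPZ6438. The arms did not overlap, and the difference did not pass the test (log2 change -0.89, SE 0.31, adjusted p = 0.154).

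The genes that work with or on Hox genes moved little. Of 8 tested Hox cofactors, the Pbx, Meis and Pknox homeodomain proteins that bind DNA with Hox proteins, 1 fell and none rose (median log2 change -0.11). Over all genes tested 3.24% fell and 3.80% rose. Meis2 was the one, at 9.98, 9.69 and 8.99 RPKM with DMSO and 7.09, 7.13 and 7.21 RPKM with EPZ6438. Its arms did not overlap (log2 change -0.41, SE 0.09, adjusted p = 0.0375 by limma). That call was lost when any library but DMSO library 3 was left out, with adjusted p between 0.0618 and 0.178. Of 6 tested upstream activators, 13 PRC1 subunits, 4 PRC2 subunits and 9 genes next to the clusters, none passed the test in either direction. Over all genes tested 7.04% did. The median log2 changes of these lists were -0.08, -0.05, -0.10 and 0.02. Evx1 and Evx2, homeobox genes just beyond HoxA and HoxD, had no read in any library.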

How the data were processed

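Per the labels' protocols, RNA was isolated with TRIzol and Direct-zol, and chromatin was precipitated with H3K27me3 (CST) or H3K4me3 (Abcam) antibodies. The submitters' processing notes name mm10, STAR 2.6.1c, Subread, MACS2, Picard and HOMER, with no parameters. The authors deposited RPKM per gene and library, and 4 merged peak lists. Dividing each RPKM value by its smallest step gave whole reads within 0.001, and these reads were used for depth, for the filter and for voom. The main test, in R 4.3.3, was the two-sided limma-trend test (limma 3.58.1) of log2(RPKM + 0.1) values for 14213 genes with at least 10 reads in at least 3 libraries, Benjamini-Hochberg adjusted. Replicates differed by more than sampling noise. Peaks were compared by overlap of at least 1 bp. Read ratios have exact 95% intervals. Scripts were tested on simulated data. The members and gene lists were chosen with earlier results of these data known. Values in every library are given for members that passed the test or reached a mean of 1 RPKM in an arm, and for listed genes that passed the test; Hotair and Gm27605 were chosen after their values were seen. Alternatives were the pseudocount, the filter, the scaling, voom, a replicate block, each library left out, and other peak windows, widths and overlaps. Input libraries were not analysed here.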

Additional observations from a re-analysis of the deposited data

How the results depend on the processing

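Over 14 alternative settings Hoxb13 rose in each (adjusted p from 0.000168 to 0.00592, log2 change from 1.06 to 4.74), and none of the members fell in any of them. Wherever reads were filtered, Hoxb13 passed through its EPZ6438 libraries alone, so its upward sign was fixed in advance. Without any filter its adjusted p was 0.00374 by limma. The number rising was 2 instead of 1 under median-of-ratios scaling, where Hoxb9 joined, and 1 whichever library was left out. Of 207 member results under alternatives, 202 kept direction and call. Reversed were Hoxa6, at a log2 change of 0.020 without EPZ6438 replicate 1 (from -0.42 to 0.020 with each library left out), and Hoxa7, at 0.026 under median-of-ratios scaling, 0.10 without DMSO replicate 2 and 0.09 without EPZ6438 replicate 2 (from -0.096 to 0.10); the cause was not tested. With the replicate number as a block 1 member rose, and the adjusted p of Meis2 was 0.0627. Libraries with the same number correlated at 0.41, 0.0781 and 0.0561 in their deviations, and DMSO library 3 correlated best with EPZ6438 library 2 (0.33), so the numbers were not taken as pairs.

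Peak counts moved more. In the clusters, a flank of 50 kb gave 152 and 35 H3K27me3 peaks (DMSO, EPZ6438) and 46 DMSO H3K4me3 peaks, and peaks of at least 400 bp numbered 38 and 11 for H3K27me3 and 0 and 5 for H3K4me3. At gene ends, peaks of at least 400 bp left 5 and 1 members for H3K27me3 and 0 and 3 for H3K4me3. The whole gene plus 1 kb gave 6 members for EPZ6438 H3K27me3, and 9 and 8 for H3K4me3. Windows of 2 kb gave 10 and 8 for H3K4me3, and an overlap of 200 bp left 2 for DMSO H3K4me3. Around the RefSeq start alone, EPZ6438 H3K4me3 was found at 1 of 22 members, against 3 at either end. The depth of the peak lists is unknown, and 23 members had too few reads to be tested.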
